A study of Caenorhabditis elegans with 16 samples.

Results

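The genes described here are the hedgehog-related and patched-related genes of *C. elegans*: every gene in the count table whose name begins with *grl*, *grd*, *wrt*, *ptr*, *ptc*, *hog* or *qua*. This name rule, which uses no measured value but was chosen with earlier results of these data known, gave 84 of the 19122 genes: 30 *grl*, 16 *grd*, 10 *wrt*, 23 *ptr* and 3 *ptc* genes, *hog-1* and *qua-1*. Poly(A) RNA of whole L4 larvae was sequenced in 16 samples, with 4 samples of each of 4 genotypes. The tested strains carried single-copy transgenes that drive a truncated, constitutively active form of the transcription factor SKN-1 (SKN-1t) from the ubiquitous *rpl-28* promoter: SKN-1t[NNNN] in strain GR3105 (unc-119(ed3) III; mgTi21), SKN-1t[NDNN] in NJL2492 (unc-119(ed3) III; mgTi42) and SKN-1t[DNDD] in NJL2494 (unc-119(ed3) III; mgTi41). The letters give asparagine (N) or aspartate (D) at a set of sites, and aspartate mimics the sequence editing that converts asparagine during maturation of the SKN-1A isoform. The wild type was N2, which has neither the transgene nor unc-119(ed3). Each form was represented by a single line, so that the form, its insertion site and the strain's history cannot be told apart, and each sample was a population of whole animals, in which fewer cells of a type and less RNA per cell cannot be told apart.

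In animals such as flies and vertebrates, Hedgehog is a secreted ligand whose receptor Patched is a multipass membrane protein with a sterol-sensing domain. Nematodes lack a clear Hedgehog and Smoothened, but have expanded both sides of this system: the warthog (*wrt*), groundhog (*grd*), ground-like (*grl*), quahog (*qua-1*) and *hog-1* genes encode secreted proteins, many of which carry the autoprocessing Hog domain of Hedgehog, and the *ptc* and *ptr* genes encode Patched and Patched-related proteins. Many are expressed in the epidermis and other cuticle-facing epithelia and are needed for molting and for the apical matrix, and the transcripts of many rise and fall with each larval molting cycle.

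Counted reads per sample ranged from 23806929 to 30457636, and members took between 0.387% and 0.781% of them. The transcript of *skn-1* itself, which the transgene adds to, was at 269 to 335, 257 to 320.1 and 206 to 256 CPM (counts scaled to a common library size, with TMM factors between libraries) in SKN-1t[NNNN] animals, SKN-1t[NDNN] animals and SKN-1t[DNDD] samples, against 112 to 133 CPM in wild type samples, so no transgenic sample reached down to the wild type range. Replicates varied by more than counting error, with a chi-square per degree of freedom of 15.9 to 155 over the 24 pairs of replicates within a genotype. The methods of the study describe biological replicates as separate populations of worms, and the labels give no more on how the replicates were grown.

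All 84 members were found in the WBcel235 annotation, and 83 are annotated as protein-coding genes, the exception being the pseudogene *ptc-2*. Chromosome V holds 31 of them, and the others lie on IV (13), X (13), II (12), I (9) and III (6). Exons of 26 members overlap those of another gene, mostly at their ends and on the opposite strand, and because the strand setting of the counting was not given in the sources used here, reads in these stretches cannot be assigned. The largest overlap is that of *wrt-3*, 1002 bases with a gene on the same strand, and its values are uncertain.

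On a per-length scale (RPKM, CPM divided by the deposited gene length in kilobases), 41 members averaged at least 10 RPKM over the 16 samples, 16 averaged 1 to 10 RPKM and 27 were below 1 RPKM. The *wrt* family was the most uniformly expressed, with 8 of its 10 genes at or above 10 RPKM and a median of 48.2 RPKM, and the *grl* family was the least, with 17 of 30 genes below 1 RPKM and a median of 0.493 RPKM. The highest mean levels were those of *grd-5* (550.2 RPKM) and *grl-16* (526 RPKM), secreted ligand-like proteins, followed by *wrt-10* at 260.0 RPKM. Among the Patched-like receptors *ptr-4* (87.3 RPKM), *ptc-3* (81.1 RPKM), *ptr-11* (60.7 RPKM) and *ptr-18* (53.4 RPKM) were highest. These levels are means over all genotypes, and the spread between samples exceeds the gap between many neighbours in the order. The filter on low counts kept 66 members in the fit of all samples, 60, 60 and 61 in the comparisons of SKN-1t[NNNN] animals, SKN-1t[NDNN] animals and SKN-1t[DNDD] animals with the wild type, and left 18 out of every fit. The members with fewer than 15 reads in all 16 samples together were *grd-8*, *grl-19*, *grl-24*, *grl-28* and *grl-30*, and *ptc-2* had at most 0.133 CPM in any sample.

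**Figure D1:**
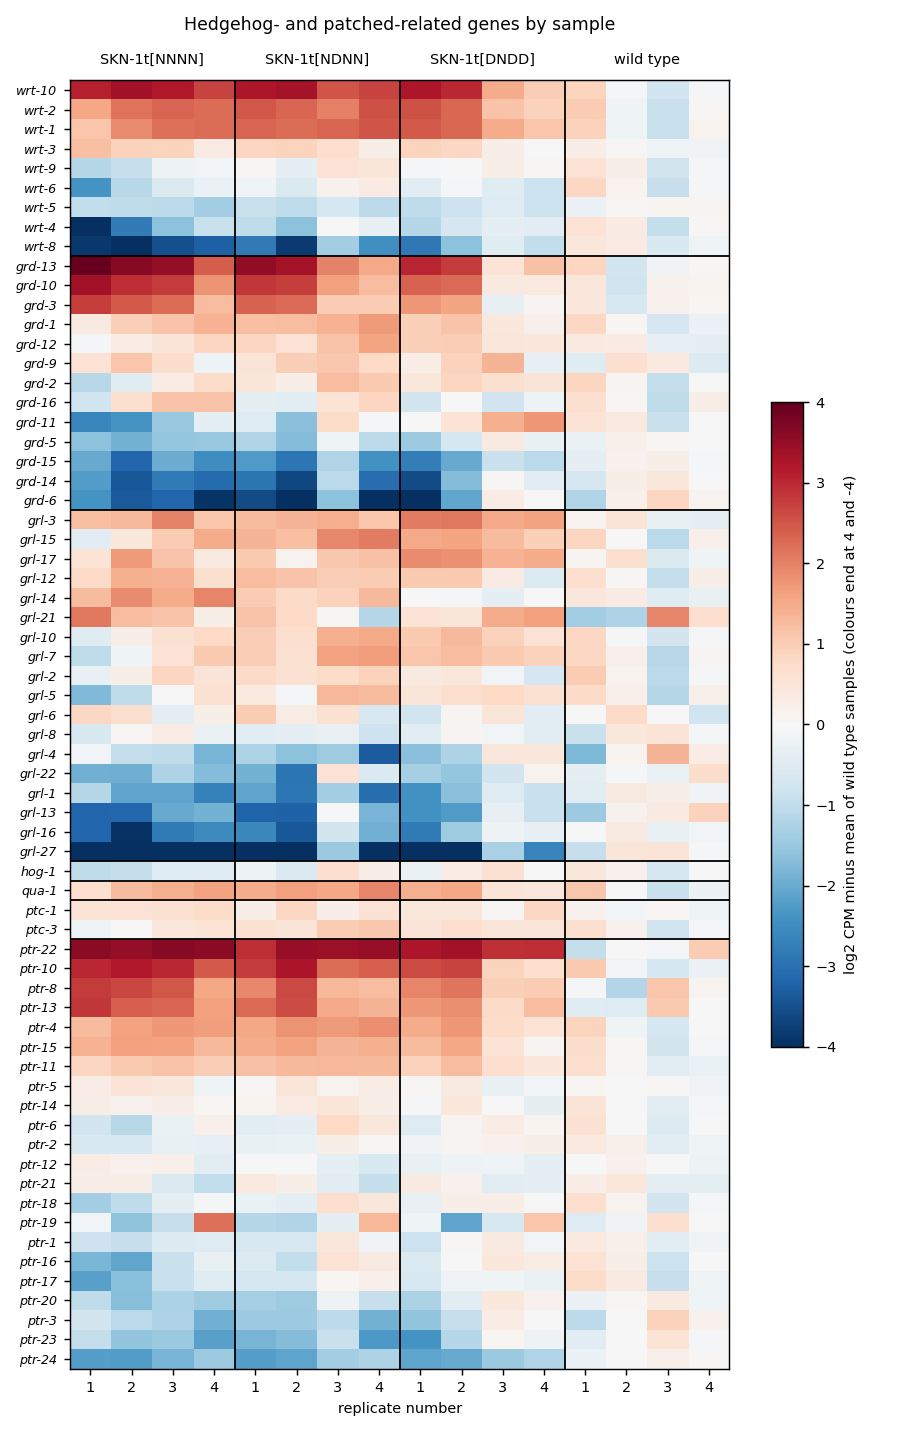
Log2 CPM of the 66 members kept in the fit of all samples (rows, by family and then by their mean in the transgenic samples) in the 16 samples (columns), minus the mean of the 4 wild type samples of that gene. Red is higher and blue lower than the wild type mean. Rows such as *ptr-22* and *ptr-24* keep 1 colour in all 12 transgenic samples, whereas for many others SKN-1t[DNDD] replicates 3 and 4 are paler than replicates 1 and 2.

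Members rose and fell in SKN-1t[NNNN] animals and in SKN-1t[NDNN] animals, and a larger share of them was called than of all genes. A gene is called here when its log2 fold change exceeds 1 in size and its adjusted p is below 0.01 (quasi-likelihood test of edgeR, with p-values adjusted by Benjamini-Hochberg over all genes tested). In SKN-1t[NNNN], 14 of 60 members tested rose and 13 fell, against 7.03% and 6.12% of all 14192 genes tested. In SKN-1t[NDNN], 13 of 60 rose and 5 fell, against 6.85% and 3.34% of 14310 genes. In SKN-1t[DNDD], 2 of 61 rose and 1 fell, against 3.44% and 3.35% of 14400 genes, a share of members near that of all genes. With the replicate number as a block, which for this strain follows from replicates of the same number deviating together across all genes, the SKN-1t[DNDD] counts were 9 higher and 4 lower, against 11.8% and 4.38% of all genes. For SKN-1t[NDNN] animals the block gave 10 and 6, against 6.51% and 3.75%. For SKN-1t[NNNN] animals, where the numbers were not taken to pair the samples, it gave 10 and 11, against 6.32% and 5.28%. At an adjusted p below 0.05 alone, 35 of 60, 35 of 60 and 15 of 61 members differed in SKN-1t[NNNN] animals, SKN-1t[NDNN] animals and SKN-1t[DNDD] animals, against 37%, 32.9% and 29.8% of all genes, a smaller share of members than of all genes in the last of these. A looser cutoff, which asked for a change of over 1.5 times and an adjusted p below 0.05, gave 19 higher and 16 lower in SKN-1t[NNNN] animals (14.3% and 12.3% of all genes), 23 and 12 in SKN-1t[NDNN] animals (14.4% and 9.52%) and 10 and 5 in SKN-1t[DNDD] animals (11.8% and 10.8%). The 3 comparisons share the wild type samples, so they are not independent of each other.

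The typical size of a member's change was also above that of other genes, while the direction was balanced. The median absolute log2 fold change was 1.15 over members and 0.42 over all genes tested in SKN-1t[NNNN] animals, 1.15 and 0.36 in SKN-1t[NDNN] animals, and 0.73 and 0.45 in SKN-1t[DNDD] animals. The signed medians were 0.10, 0.23 and 0.02 over members and 0.14, 0.08 and 0.04 over all genes in the same order of strains. Without overlap between groups, 16 members were higher and 14 lower in SKN-1t[NNNN] animals (14.9% and 22.4% of all genes), 20 higher and 10 lower in SKN-1t[NDNN] animals (16.1% and 20.2%), and 7 higher and 5 lower in SKN-1t[DNDD] animals (12.5% and 19.2%). Members that were lower without overlap were thus near the share of all genes in SKN-1t[NNNN] animals and below it in the other strains. Leaving out 1 sample at a time, 7 of the 14 higher and 9 of the 13 lower calls in SKN-1t[NNNN] animals held in all 8 fits, as did 5 of 13 and 1 of 5 in SKN-1t[NDNN] animals. The count of higher members fell as low as 7 without wild type replicate 4 in SKN-1t[NNNN] animals, against 4.82% of all genes in that fit. In SKN-1t[NDNN] animals it fell to 5 without wild type replicate 2 or 4 (4.46% and 4.77% of all genes). The lower members of SKN-1t[NDNN] animals numbered 2 without its replicate 1 or wild type replicate 2 (2.98% and 2.65%). They numbered 3 without its replicate 4 or wild type replicate 4 (2.78% and 2.58%) and 11 without its replicate 3 (4.81%). Without SKN-1t[NNNN] replicate 2 or 3 the higher members of that strain numbered 9 (5.13% and 5.35% of all genes). Without wild type replicate 2 they numbered 8 (4.7%). Without SKN-1t[NDNN] replicate 1 the higher members of SKN-1t[NDNN] animals numbered 7 (4.61%).

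**Figure D2:**
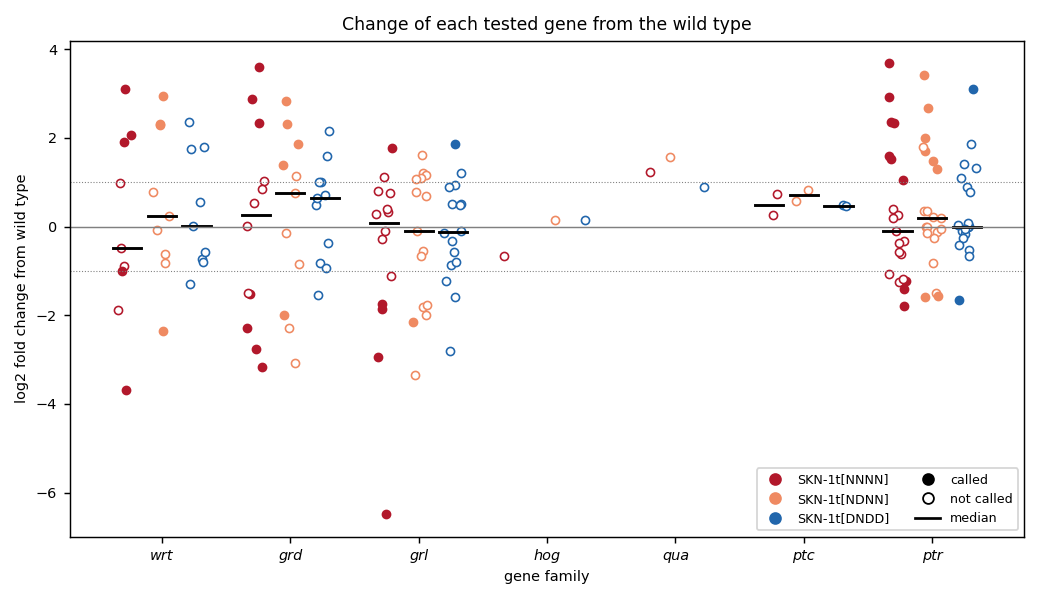
Log2 fold change from the wild type (vertical axis) of each member tested, by family (horizontal axis) and strain (colour). Filled points are called and open points are not, short black lines are family medians and dotted lines mark log2 fold changes of 1 and -1. Called genes lie on both sides of 0 in the *wrt*, *grd*, *grl* and *ptr* families of SKN-1t[NNNN] animals, and only *ptr-22*, *grl-17* and *ptr-24* are filled in SKN-1t[DNDD] animals.

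Among the warthog genes, *wrt-10*, *wrt-1* and *wrt-2* rose in SKN-1t[NNNN] animals and SKN-1t[NDNN] animals while *wrt-8* fell. Of the 9 *wrt* genes tested, 3 were called higher and 2 lower in SKN-1t[NNNN] animals, while SKN-1t[NDNN] animals had 3 called higher and 1 lower. *wrt-10*, a secreted warthog protein, and its neighbour *wrt-1* lie end to end on chromosome II (7530996 to 7534563, on opposite strands), 15 bases apart. *wrt-10* was at 425, 497, 449.7 and 316 CPM in SKN-1t[NNNN] samples, 456, 492, 279 and 319 in SKN-1t[NDNN] samples, 457, 397, 137 and 96.8 in SKN-1t[DNDD] samples, against 91.2, 45.9, 28.9 and 47.1 CPM in wild type samples. The lowest transgenic value, that of SKN-1t[DNDD] replicate 4, was just above wild type replicate 1, so no strain overlapped the wild type, but SKN-1t[DNDD] replicates 3 and 4 stood well below replicates 1 and 2. In the fits, the log2 changes for *wrt-10* were 3.1 ± 0.34 (adjusted p = 0.000245) in SKN-1t[NNNN] animals, 2.95 ± 0.368 (adjusted p = 0.000605) in SKN-1t[NDNN] animals and 2.36 ± 0.56 (adjusted p = 0.0149) in SKN-1t[DNDD] animals, each with its standard error.

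*wrt-1* was at 101, 177, 219 and 223 CPM in SKN-1t[NNNN] samples, 238, 221, 240.2 and 271 in SKN-1t[NDNN] samples, 259, 231, 132 and 101 in SKN-1t[DNDD] samples, against 89.5, 42, 25.7 and 52 CPM in wild type samples. The groups did not overlap here either, with SKN-1t[DNDD] replicates 3 and 4 again below replicates 1 and 2. Its log2 fold changes were 1.9 ± 0.399 (adjusted p = 0.00613) in SKN-1t[NNNN] animals, 2.3 ± 0.336 (adjusted p = 0.00119) in SKN-1t[NDNN] animals and 1.8 ± 0.423 (adjusted p = 0.0145) in SKN-1t[DNDD] animals, and the call in SKN-1t[NNNN] animals was lost in 6 of the 8 fits that leave out a sample. *wrt-2* was at 102, 157, 173 and 165 CPM in SKN-1t[NNNN] samples, 192, 175, 139.7 and 204 in SKN-1t[NDNN] samples, 202, 171, 77.1 and 65.1 in SKN-1t[DNDD] samples, against 70.5, 30.8, 18.6 and 35.5 CPM in wild type samples. The SKN-1t[DNDD] range of *wrt-2* overlapped that of the wild type, and the log2 fold changes were 2.06 ± 0.385 (adjusted p = 0.00353) in SKN-1t[NNNN] animals, 2.28 ± 0.371 (adjusted p = 0.00197) in SKN-1t[NDNN] animals and 1.74 ± 0.488 (adjusted p = 0.0288) in SKN-1t[DNDD] animals. The SKN-1t[NNNN] call of *wrt-2* was lost in 4 of those 8 fits. With the replicate block, the SKN-1t[DNDD] changes of all 3 genes passed the cutoff, at 2.19 (adjusted p = 0.00186) for *wrt-10*, 1.84 (adjusted p = 0.00187) for *wrt-1* and 1.74 (adjusted p = 0.00203) for *wrt-2*. The SKN-1t[NNNN] calls of *wrt-1* and *wrt-2* were not met with the block (adjusted p = 0.0234 and 0.013).

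*wrt-8* was at 5.4, 3.05, 6.91 and 8.1 CPM in SKN-1t[NNNN] samples, 11, 5.47, 30.2 and 14.4 in SKN-1t[NDNN] samples, 10.9, 25.2, 57.3 and 39.7 in SKN-1t[DNDD] samples, against 109.6, 99.2, 51.5 and 70.8 CPM in wild type samples. All SKN-1t[NNNN] and SKN-1t[NDNN] samples were below the lowest wild type sample, and only SKN-1t[DNDD] replicate 3 reached the wild type range. On the log2 scale the changes from the wild type for *wrt-8* were -3.69 ± 0.358 (adjusted p = 0.000133) in SKN-1t[NNNN] animals, -2.35 ± 0.482 (adjusted p = 0.0059) in SKN-1t[NDNN] animals and -1.31 ± 0.458 (adjusted p = 0.0595) in SKN-1t[DNDD] animals, and the SKN-1t[NDNN] call was not met with the block, at -2.55 (adjusted p = 0.0166). That call held in 3 of the 8 fits that leave out a sample. *wrt-5*, which is needed for embryonic morphogenesis, had a smaller decrease with little spread. *wrt-5* was at 13.3, 13.1, 12.4 and 9.87 CPM in SKN-1t[NNNN] samples, 14.1, 13.1, 16.1 and 12.8 in SKN-1t[NDNN] samples, 13, 14.9, 18.3 and 14.5 in SKN-1t[DNDD] samples, against 22.2, 27.1, 28.1 and 28.1 CPM in wild type samples. No transgenic sample reached the lowest wild type value, and the log2 fold changes were -1.0 ± 0.118 (adjusted p = 0.000355) in SKN-1t[NNNN] animals, -0.82 ± 0.112 (adjusted p = 0.000903) in SKN-1t[NDNN] animals and -0.79 ± 0.141 (adjusted p = 0.00418) in SKN-1t[DNDD] animals. In SKN-1t[NNNN] this lay at the edge of the cutoff, and the call was lost without SKN-1t[NNNN] replicate 4.

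The other abundant *wrt* genes varied as much within a genotype as between genotypes. *wrt-4* was at 28.9, 65.9, 148 and 247 CPM in SKN-1t[NNNN] samples, 229, 148, 461 and 367 in SKN-1t[NDNN] samples, 207, 286, 350.5 and 341 in SKN-1t[DNDD] samples, against 690.4, 576, 238 and 469.7 CPM in wild type samples. *wrt-6* was at 66.6, 157, 227 and 280.4 CPM in SKN-1t[NNNN] samples, 299, 227, 383 and 423 in SKN-1t[NDNN] samples, 251, 318, 241 and 187 in SKN-1t[DNDD] samples, against 602, 374, 179 and 328 CPM in wild type samples. Both had their lowest SKN-1t[NNNN] value in replicate 1, and wild type replicate 1 was the highest sample. The log2 fold changes in the same order of strains were -1.88, -0.63 and -0.73 for *wrt-4* (adjusted p = 0.0463, 0.271 and 0.0984) and -0.89, -0.07 and -0.56 for *wrt-6* (adjusted p = 0.177, 0.906 and 0.208). The remaining *wrt* genes tested, *wrt-3* and *wrt-9*, had log2 fold changes between -0.48 and 0.97 without a call, and *wrt-7* was too low to test.

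The groundhog genes split into members that rose and members that fell. In SKN-1t[NNNN], 3 of the 12 *grd* genes tested rose and 4 fell, and in SKN-1t[NDNN] animals 4 of 11 rose and 1 fell. *grd-13*, *grd-3* and *grd-10* lie in a row on the plus strand of chromosome IV (3438312 to 3441841, 3530 bases), 147 and 601 bases apart, and all 3 rose in these strains. *grd-13* was at 96.7, 63.6, 58.4 and 26.9 CPM in SKN-1t[NNNN] samples, 60.0, 51, 19.9 and 14.4 in SKN-1t[NDNN] samples, 41.8, 35.1, 7.4 and 11.3 in SKN-1t[DNDD] samples, against 9.06, 3.0, 4.51 and 5.14 CPM in wild type samples. All SKN-1t[NNNN] and SKN-1t[NDNN] samples exceeded the wild type ones, while SKN-1t[DNDD] replicate 3 fell within the wild type range. The fits gave log2 fold changes for *grd-13* of 3.6 ± 0.448 (adjusted p = 0.00045) in SKN-1t[NNNN] animals, 2.84 ± 0.533 (adjusted p = 0.00395) in SKN-1t[NDNN] animals and 2.15 ± 0.59 (adjusted p = 0.0269) in SKN-1t[DNDD] animals. *grd-3* was at 93.7, 74.9, 64.6 and 31.8 CPM in SKN-1t[NNNN] samples, 69.4, 65.4, 27.6 and 27.6 in SKN-1t[NDNN] samples, 45.4, 40.5, 10.9 and 14.6 in SKN-1t[DNDD] samples, against 18, 8.69, 15.2 and 14.2 CPM in wild type samples. *grd-10* was at 81.9, 62.8, 56.3 and 27.8 CPM in SKN-1t[NNNN] samples, 57.7, 55.1, 24.9 and 19.1 in SKN-1t[NDNN] samples, 41.1, 39.2, 10.3 and 10.4 in SKN-1t[DNDD] samples, against 11, 4.61, 9.1 and 8.9 CPM in wild type samples. For both of these the 2 lower SKN-1t[DNDD] samples, replicates 3 and 4, lay within the wild type range. Their log2 fold changes were 2.34, 1.85 and 0.99 for *grd-3* (adjusted p = 0.000883, 0.00559 and 0.128) and 2.87, 2.32 and 1.6 for *grd-10* (adjusted p = 0.000455, 0.00326 and 0.0485) in SKN-1t[NNNN] animals, SKN-1t[NDNN] animals and SKN-1t[DNDD] animals. With the block the SKN-1t[NDNN] change of *grd-3* was 1.74 (adjusted p = 0.0131) and not called. Of the 8 fits that leave out a sample, the SKN-1t[NDNN] calls held in 3 for *grd-13*, 3 for *grd-3* and 5 for *grd-10*. Also in SKN-1t[NDNN] animals, *grd-1* rose by 1.38 on the log2 scale (adjusted p = 0.0075), which with the block was 1.48 (adjusted p = 0.0119). The *grd-1* call held in 1 of the 8 fits.

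The *grd* genes that fell in SKN-1t[NNNN] animals included the 2 most abundant, *grd-5* and *grd-14*, and the summed level of the family was 461 to 611 CPM in SKN-1t[NNNN] animals, 478 to 905 in SKN-1t[NDNN] animals and 456 to 1387 in SKN-1t[DNDD] samples, against 895 to 1466 CPM in wild type samples. *grd-5* was at 141, 118, 149 and 155 CPM in SKN-1t[NNNN] samples, 191, 131, 387 and 211 in SKN-1t[NDNN] samples, 159.9, 271, 568 and 355 in SKN-1t[DNDD] samples, against 367, 509.9, 458 and 432 CPM in wild type samples. *grd-14* was at 94.9, 43.1, 63.9 and 53.4 CPM in SKN-1t[NNNN] samples, 58.6, 35.5, 211 and 53.7 in SKN-1t[NDNN] samples, 37.2, 135, 463 and 330.1 in SKN-1t[DNDD] samples, against 281, 528, 600.5 and 454 CPM in wild type samples. *grd-6* was at 34.2, 17.4, 19.8 and 11.6 CPM in SKN-1t[NNNN] samples, 14.8, 10.6, 57.1 and 6.48 in SKN-1t[NDNN] samples, 10.5, 42.3, 218 and 182 in SKN-1t[DNDD] samples, against 77, 206, 323 and 196 CPM in wild type samples. In all 3 genes the SKN-1t[NNNN] samples lay below every wild type sample, as did SKN-1t[DNDD] replicates 1 and 2. Replicates 3 and 4 of SKN-1t[DNDD] lay within the wild type range, except that for *grd-5* replicate 3 was above it and replicate 4 just under it. In SKN-1t[NNNN] the log2 fold changes were -1.53 ± 0.132 (adjusted p = 7.9e-05) for *grd-5*, -2.75 ± 0.304 (adjusted p = 0.000252) for *grd-14* and -3.16 ± 0.471 (adjusted p = 0.00112) for *grd-6*. In SKN-1t[NDNN] they were -0.85, -2.29 and -3.08 (adjusted p = 0.0517, 0.0128 and 0.0114), of which those of *grd-14* and *grd-6* passed the cutoff with the block, at -2.59 (adjusted p = 0.00474) and -3.41 (adjusted p = 0.00412). In SKN-1t[DNDD] they were -0.38, -0.94 and -0.82 (adjusted p = 0.398, 0.272 and 0.456).

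*grd-15* was lower in all 3 strains. *grd-15* was at 2.81, 1.21, 2.87 and 2.0 CPM in SKN-1t[NNNN] samples, 2.33, 1.51, 5.02 and 2.09 in SKN-1t[NDNN] samples, 1.63, 2.78, 6.17 and 5.46 in SKN-1t[DNDD] samples, against 9.06, 12.9, 13.7 and 11.1 CPM in wild type samples. No transgenic sample overlapped the wild type, and the log2 fold changes were -2.28 ± 0.287 (adjusted p = 0.00048) in SKN-1t[NNNN] animals, -2.01 ± 0.354 (adjusted p = 0.00293) in SKN-1t[NDNN] animals and -1.54 ± 0.393 (adjusted p = 0.0204) in SKN-1t[DNDD] animals, the last of which passed the cutoff with the block (-1.68 (adjusted p = 0.00342)). Exons of *grd-15* overlap those of *cyn-15* on the opposite strand by 112 bases. The other *grd* genes tested were *grd-2*, *grd-11*, *grd-12* and *grd-16*, whose log2 fold changes from the wild type lay between -1.5 and 1.14 without a call.

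The ground-like genes held the largest single decrease among the members tested, that of *grl-27* in SKN-1t[NNNN] animals. In SKN-1t[NNNN] 1 of the 14 *grl* genes tested rose (*grl-14*) and 4 fell (*grl-27*, *grl-16*, *grl-1* and *grl-22*). In SKN-1t[NDNN] only *grl-1*, of 15 tested, was called, and in SKN-1t[DNDD] animals only *grl-17*, of 16, which passed the count filter only through the SKN-1t[DNDD] samples. *grl-16* is the most abundant *grl* gene and the second most abundant member. *grl-16* was at 199.7, 114.8, 252 and 306 CPM in SKN-1t[NNNN] samples, 299.8, 171, 1071 and 473 in SKN-1t[NDNN] samples, 259, 672, 1571 and 1439 in SKN-1t[DNDD] samples, against 1817, 2321, 1455 and 1675 CPM in wild type samples. All SKN-1t[NNNN] and SKN-1t[NDNN] samples lay below the lowest wild type sample, and of SKN-1t[DNDD] animals only replicate 3 reached it. Log2 fold changes from the wild type came to -2.93 ± 0.312 (adjusted p = 0.000211) in SKN-1t[NNNN] animals, -1.77 ± 0.496 (adjusted p = 0.0246) in SKN-1t[NDNN] animals and -0.87 ± 0.48 (adjusted p = 0.183) in SKN-1t[DNDD] animals. The share of *grl-16* in the summed *grl* CPM was 22.6% to 38% in SKN-1t[NNNN] samples, 23% to 49.2% in SKN-1t[NDNN] samples and 25.4% to 64.4% in SKN-1t[DNDD] samples, against 72.7% to 80.9% in wild type samples. The summed *grl* level was 508 to 1052 CPM in SKN-1t[NNNN] animals, 743 to 2178 in SKN-1t[NDNN] animals and 1018 to 2455 in SKN-1t[DNDD] samples, against 1937 to 2869 CPM in wild type samples.

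*grl-27* was close to absent from SKN-1t[NNNN]. *grl-27* was at 0.144, 0, 0.173 and 0.269 CPM in SKN-1t[NNNN] samples, 0, 0, 4.85 and 0.632 in SKN-1t[NDNN] samples, 0.0757, 0.643, 5.57 and 2.11 in SKN-1t[DNDD] samples, against 7.19, 19.2, 19.6 and 13.2 CPM in wild type samples. Every transgenic sample was below the lowest wild type sample, and SKN-1t[NDNN] animals and SKN-1t[DNDD] animals had their highest value in replicate 3. Fitted log2 fold changes were -6.48 ± 0.641 (adjusted p = 0.00015) in SKN-1t[NNNN] animals, -3.35 ± 1.23 (adjusted p = 0.0668) in SKN-1t[NDNN] animals and -2.81 ± 0.903 (adjusted p = 0.0458) in SKN-1t[DNDD] animals. With the block, that of SKN-1t[DNDD] animals was -3.38 (adjusted p = 0.00438). *grl-1* was at 7.2, 3.64, 3.63 and 2.42 CPM in SKN-1t[NNNN] samples, 3.68, 2.12, 6.23 and 1.93 in SKN-1t[NDNN] samples, 2.95, 4.94, 11.2 and 8.59 in SKN-1t[DNDD] samples, against 11.7, 20.8, 19 and 14.4 CPM in wild type samples. No transgenic sample of *grl-1* reached the wild type range. Its log2 fold changes were -1.85 ± 0.335 (adjusted p = 0.00303) in SKN-1t[NNNN] animals, -2.15 ± 0.384 (adjusted p = 0.00311) in SKN-1t[NDNN] animals and -1.24 ± 0.394 (adjusted p = 0.044) in SKN-1t[DNDD] animals. With the block, that of SKN-1t[DNDD] animals was -1.36 (adjusted p = 0.00674). The *grl-1* call in SKN-1t[NNNN] animals held in 5 of the 8 fits that leave out a sample, and that of *grl-22* in 6. The *grl-22* call was not met with the block (adjusted p = 0.0109).

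*grl-14* was at 6.84, 10.5, 7.87 and 11 CPM in SKN-1t[NNNN] samples, 5.7, 4.76, 5.37 and 6.92 in SKN-1t[NDNN] samples, 2.8, 2.71, 2.09 and 2.76 in SKN-1t[DNDD] samples, against 3.78, 3.52, 1.96 and 2.24 CPM in wild type samples. *grl-14* was higher without overlap in SKN-1t[NNNN] animals and SKN-1t[NDNN] animals, while SKN-1t[DNDD] samples lay within the wild type range. In the fits, the log2 changes were 1.77 ± 0.28 (adjusted p = 0.00151) in SKN-1t[NNNN] animals, 1.07 ± 0.252 (adjusted p = 0.0115) in SKN-1t[NDNN] animals and -0.14 ± 0.266 (adjusted p = 0.707) in SKN-1t[DNDD] animals. *grl-17* was at 0.36, 0.90, 0.587 and 0.307 CPM in SKN-1t[NNNN] samples, 0.54, 0.258, 0.554 and 0.598 in SKN-1t[NDNN] samples, 1.02, 0.981, 0.71 and 0.757 in SKN-1t[DNDD] samples, against 0.249, 0.391, 0.125 and 0.19 CPM in wild type samples. *grl-17* was low throughout but higher in every SKN-1t[DNDD] sample than in any wild type sample, with a log2 fold change of 1.86 ± 0.359 (adjusted p = 0.00605), and it was called in only 1 of the 8 fits that leave out a sample. The other strains were not tested for *grl-17* against the wild type, because it did not pass their count filter. It passed that of SKN-1t[DNDD] animals through the SKN-1t[DNDD] samples, at 27, 29, 19 and 23 reads, against 6, 9, 3 and 5 in wild type samples. The filter thus admitted *grl-17* through the group where it was high, and its call is not independent of the filter.

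The next most abundant *grl* genes, *grl-7* and *grl-5*, had the lowest SKN-1t[NNNN] values in replicate 1. *grl-7* was at 74, 134, 226 and 309 CPM in SKN-1t[NNNN] samples, 301, 229, 455 and 477 in SKN-1t[NDNN] samples, 326, 353, 310.2 and 286 in SKN-1t[DNDD] samples, against 266, 172, 69.7 and 162 CPM in wild type samples. *grl-5* was at 39.6, 66.9, 136 and 204 CPM in SKN-1t[NNNN] samples, 177, 129, 339 and 324 in SKN-1t[NDNN] samples, 189, 217, 236 and 205 in SKN-1t[DNDD] samples, against 228, 156, 60.6 and 154 CPM in wild type samples. Genotypes overlapped for *grl-5* in every comparison with the wild type and for *grl-7* in those of SKN-1t[NNNN] animals and SKN-1t[NDNN] animals. The log2 fold changes in SKN-1t[NNNN] animals, SKN-1t[NDNN] animals and SKN-1t[DNDD] animals were 0.28, 1.21 and 0.94 for *grl-7* (adjusted p = 0.695, 0.0417 and 0.0608) and -0.29, 0.78 and 0.51 for *grl-5* (adjusted p = 0.712, 0.198 and 0.251). *grl-15* followed the same order, at 0.76, 1.61 and 1.2 (adjusted p = 0.246, 0.0112 and 0.033), and with the block its SKN-1t[DNDD] change was 1.33 (adjusted p = 0.00748). *grl-21*, which has been linked to fat metabolism, ranged from 5.32 to 54.2 CPM among the wild type samples alone, and its log2 fold changes of 0.8, -0.1 and 0.5 had adjusted p of 0.422, 0.936 and 0.61.

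*qua-1*, the quahog gene, is required for molting. *qua-1* was at 259, 395, 450.3 and 503 CPM in SKN-1t[NNNN] samples, 452, 511, 475 and 639 in SKN-1t[NDNN] samples, 447, 475, 233 and 224 in SKN-1t[DNDD] samples, against 355, 164, 87.7 and 139 CPM in wild type samples. The SKN-1t[NDNN] samples were all above the wild type, and wild type replicate 1 overlapped the other strains. On the log2 scale the changes from the wild type were 1.23 ± 0.415 (adjusted p = 0.0467) in SKN-1t[NNNN] animals, 1.56 ± 0.386 (adjusted p = 0.0142) in SKN-1t[NDNN] animals and 0.9 ± 0.439 (adjusted p = 0.141) in SKN-1t[DNDD] animals. With the block, that of SKN-1t[DNDD] animals was 1.0 (adjusted p = 0.00878). *hog-1* was at 11.7, 12, 16.3 and 16.6 CPM in SKN-1t[NNNN] samples, 20.5, 15.9, 37.5 and 28.4 in SKN-1t[NDNN] samples, 19.6, 28.9, 36 and 23.1 in SKN-1t[DNDD] samples, against 32.2, 26.8, 14.9 and 23.9 CPM in wild type samples. *hog-1* overlapped the wild type in every strain, with log2 fold changes of -0.67 ± 0.241 (adjusted p = 0.0599) in SKN-1t[NNNN] animals, 0.15 ± 0.30 (adjusted p = 0.748) in SKN-1t[NDNN] animals and 0.15 ± 0.26 (adjusted p = 0.689) in SKN-1t[DNDD] animals.

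**Figure D3:**
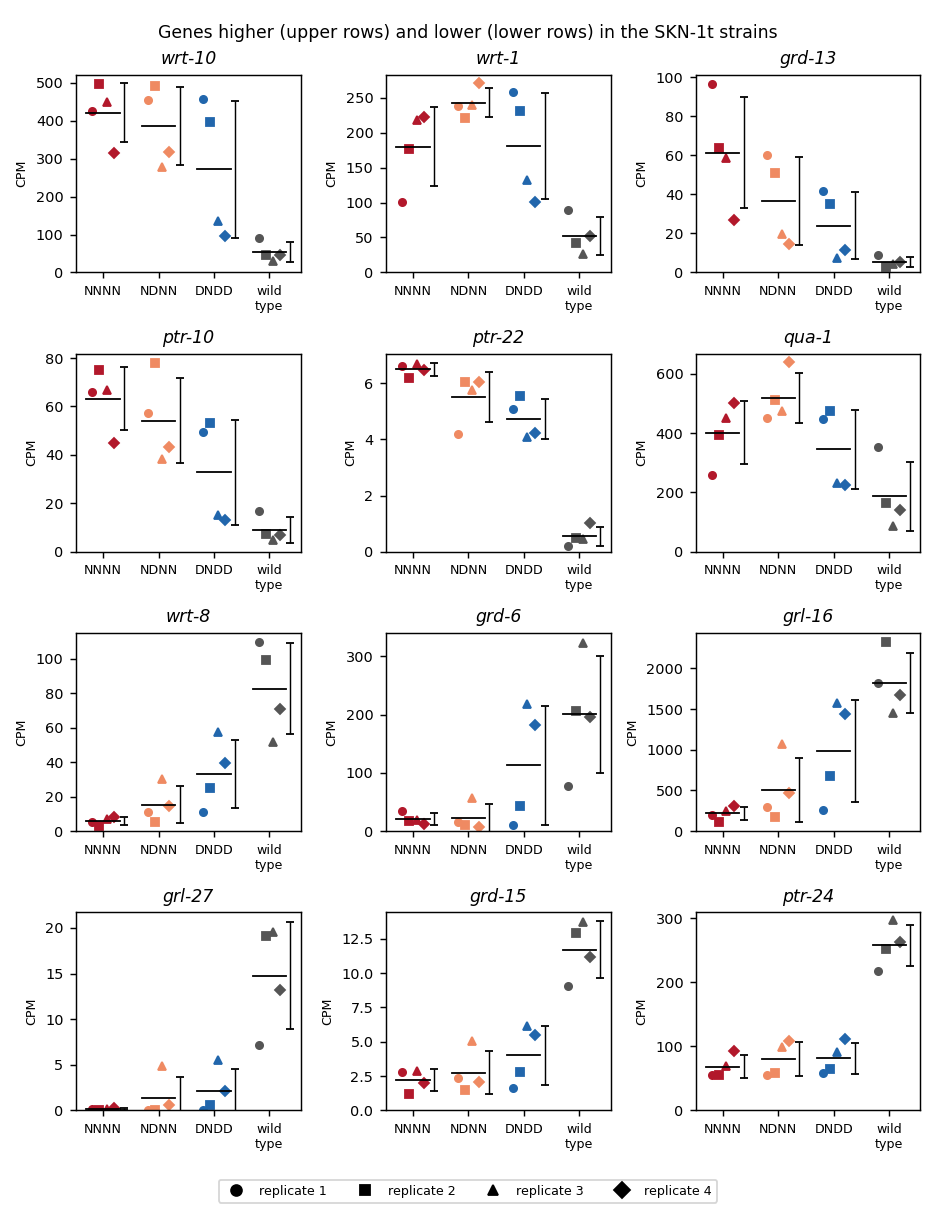
CPM (vertical axes, from 0) of 12 called or high-level members in the 4 samples of each genotype, with the marker giving the replicate number. Horizontal bars are means and error bars beside them are SD (n = 4). *ptr-22* is the only panel of the upper rows in which the strains' samples form tight groups, at 4.07 to 6.70 CPM, far above the wild type (0.208 to 1.03 CPM), and in the lower rows *ptr-24* lies below the wild type throughout.

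On the receptor side, *ptc-1* and *ptc-3*, the Patched homologues that are protein-coding genes here, differed little from the wild type. *ptc-1* was at 88, 90.1, 90.7 and 100.5 CPM in SKN-1t[NNNN] samples, 71, 107, 72.4 and 89.4 in SKN-1t[NDNN] samples, 82.3, 83.1, 62.3 and 107 in SKN-1t[DNDD] samples, against 68.3, 55.8, 64 and 53.4 CPM in wild type samples. Every SKN-1t[NNNN] and SKN-1t[NDNN] sample of *ptc-1*, which in *C. elegans* acts in the germ line, exceeded the highest wild type sample, but the log2 fold changes were below the cutoff at 0.73 ± 0.103 (adjusted p = 0.000857) in SKN-1t[NNNN] animals, 0.59 ± 0.153 (adjusted p = 0.018) in SKN-1t[NDNN] animals and 0.48 ± 0.164 (adjusted p = 0.0557) in SKN-1t[DNDD] animals. *ptc-3* was at 235.0, 268, 353 and 392 CPM in SKN-1t[NNNN] samples, 402, 383, 538 and 561 in SKN-1t[NDNN] samples, 379, 424, 374 and 375 in SKN-1t[DNDD] samples, against 417, 302, 153 and 259 CPM in wild type samples. *ptc-3*, an essential gene expressed in the epidermis, overlapped the wild type in every strain, with log2 fold changes of 0.26 ± 0.298 (adjusted p = 0.525) in SKN-1t[NNNN] animals, 0.82 ± 0.281 (adjusted p = 0.0528) in SKN-1t[NDNN] animals and 0.46 ± 0.256 (adjusted p = 0.187) in SKN-1t[DNDD] animals.

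The Patched-related *ptr* genes, the family with the most members tested, held the largest number of calls. Of 21 tested, 7 rose and 3 fell in SKN-1t[NNNN] animals, 6 rose and 2 fell in SKN-1t[NDNN] animals, and 1 rose and 1 fell in SKN-1t[DNDD] animals. *ptr-22* (chromosome V, 18919221 to 18931379, minus strand) and *ptr-24* (chromosome X, 13338028 to 13348125, plus strand) were the members called in all 3 strains. *ptr-22* was at 6.62, 6.18, 6.7 and 6.49 CPM in SKN-1t[NNNN] samples, 4.18, 6.05, 5.75 and 6.05 in SKN-1t[NDNN] samples, 5.07, 5.55, 4.07 and 4.21 in SKN-1t[DNDD] samples, against 0.208, 0.478, 0.459 and 1.03 CPM in wild type samples. Transgenic and wild type samples did not overlap, and the strains were tight around a low level that is nonetheless several times that of the wild type. The fits gave log2 fold changes of 3.68 ± 0.414 (adjusted p = 0.000276) in SKN-1t[NNNN] animals, 3.42 ± 0.41 (adjusted p = 0.000512) in SKN-1t[NDNN] animals and 3.11 ± 0.424 (adjusted p = 0.00115) in SKN-1t[DNDD] animals. *ptr-24* was at 55, 54.5, 70.1 and 93.1 CPM in SKN-1t[NNNN] samples, 55.3, 58.9, 98.6 and 109 in SKN-1t[NDNN] samples, 58.8, 63.9, 91.2 and 111 in SKN-1t[DNDD] samples, against 218, 253, 297 and 264 CPM in wild type samples. *ptr-24*, linked to mitochondrial form and lipid metabolism, was lower in every transgenic sample than in any wild type sample. Its log2 fold changes were -1.79 ± 0.201 (adjusted p = 0.00027) in SKN-1t[NNNN] animals, -1.59 ± 0.229 (adjusted p = 0.00111) in SKN-1t[NDNN] animals and -1.66 ± 0.212 (adjusted p = 0.000877) in SKN-1t[DNDD] animals, and the calls of both genes held in every fit that left out a sample, in all 3 strains.

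Of the other *ptr* genes, *ptr-10* and *ptr-13* rose in SKN-1t[NNNN] animals and SKN-1t[NDNN] animals, and *ptr-8* rose in SKN-1t[NNNN] animals. *ptr-10* was at 66.1, 75, 67 and 45 CPM in SKN-1t[NNNN] samples, 57.1, 78, 38.4 and 43.2 in SKN-1t[NDNN] samples, 49.6, 53.3, 15.2 and 13 in SKN-1t[DNDD] samples, against 16.9, 7.52, 4.92 and 6.96 CPM in wild type samples. *ptr-10*, used as a marker of glial cells, was above the wild type in every SKN-1t[NNNN] and SKN-1t[NDNN] sample, and SKN-1t[DNDD] replicates 3 and 4 were within the wild type range. Log2 fold changes from the wild type came to 2.91 ± 0.371 (adjusted p = 0.00051) in SKN-1t[NNNN] animals, 2.67 ± 0.406 (adjusted p = 0.00145) in SKN-1t[NDNN] animals and 1.86 ± 0.568 (adjusted p = 0.0385) in SKN-1t[DNDD] animals. With the block, that of SKN-1t[DNDD] animals was 1.73 (adjusted p = 0.0034). Exons of *ptr-10* overlap those of F55F8.8 on the opposite strand by 92 bases. *ptr-8* was at 85.7, 78.7, 69 and 35.8 CPM in SKN-1t[NNNN] samples, 47.1, 77.2, 30.8 and 28.8 in SKN-1t[NDNN] samples, 47.8, 54.5, 23.9 and 25 in SKN-1t[DNDD] samples, against 12, 5.43, 26.5 and 13.1 CPM in wild type samples. *ptr-13* was at 41.4, 30.4, 29.3 and 18.1 CPM in SKN-1t[NNNN] samples, 28.3, 35.7, 16.6 and 14.9 in SKN-1t[NDNN] samples, 19.3, 21, 9.9 and 13.6 in SKN-1t[DNDD] samples, against 4.07, 4.0, 12 and 5.67 CPM in wild type samples. In both, wild type replicate 3 was the highest of its group, and it overlapped SKN-1t[DNDD]. The log2 fold changes of *ptr-8* were 2.35, 1.79 and 1.41 (adjusted p = 0.00426, 0.0214 and 0.0505) and those of *ptr-13* were 2.32, 1.99 and 1.32 (adjusted p = 0.00227, 0.00742 and 0.0378), and with the block *ptr-13* in SKN-1t[NDNN] animals was at 2.03 (adjusted p = 0.0202) and not called. Leaving out a sample, the SKN-1t[NNNN] call of *ptr-8* held in 3 of 8 fits, and that of *ptr-13* held in 6 of 8 in SKN-1t[NNNN] animals and 3 of 8 in SKN-1t[NDNN] animals.

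*ptr-4* and *ptr-11*, the most abundant *ptr* genes, rose in SKN-1t[NNNN] animals and SKN-1t[NDNN] animals. *ptr-4* was at 273, 341, 376 and 357 CPM in SKN-1t[NNNN] samples, 325, 387, 367 and 411 in SKN-1t[NDNN] samples, 317, 372, 186 and 166 in SKN-1t[DNDD] samples, against 209, 99.5, 69.3 and 111 CPM in wild type samples. *ptr-11* was at 162, 188, 198 and 177 CPM in SKN-1t[NNNN] samples, 202, 224, 224 and 223 in SKN-1t[NDNN] samples, 169.8, 212, 143 and 120.3 in SKN-1t[DNDD] samples, against 143, 92.2, 66.1 and 75.4 CPM in wild type samples. For both, all SKN-1t[NNNN] and SKN-1t[NDNN] samples exceeded the wild type ones. SKN-1t[DNDD] replicates 3 and 4 lay between wild type replicate 1 and the other wild type samples, except that replicate 3 was level with wild type replicate 1 for *ptr-11*. Fitted log2 fold changes for *ptr-4* were 1.58 ± 0.312 (adjusted p = 0.00461) in SKN-1t[NNNN] animals, 1.7 ± 0.306 (adjusted p = 0.00324) in SKN-1t[NDNN] animals and 1.1 ± 0.377 (adjusted p = 0.0559) in SKN-1t[DNDD] animals. With the block, that of SKN-1t[DNDD] animals was 1.13 (adjusted p = 0.00777). Those of *ptr-11* were 1.06 ± 0.228 (adjusted p = 0.00691) in SKN-1t[NNNN] animals, 1.3 ± 0.227 (adjusted p = 0.00277) in SKN-1t[NDNN] animals and 0.78 ± 0.264 (adjusted p = 0.0525) in SKN-1t[DNDD] animals. Leaving out a sample, the calls of *ptr-4* held in 4 of 8 fits in SKN-1t[NNNN] animals and 6 of 8 in SKN-1t[NDNN] animals, and those of *ptr-11* in 1 of 8 and 6 of 8. The SKN-1t[NNNN] calls of *ptr-4* and *ptr-11* were not met with the block (adjusted p = 0.0124 and 0.0157). *ptr-15* rose similarly, by 1.52 in SKN-1t[NNNN] animals and 1.48 in SKN-1t[NDNN] animals on the log2 scale (adjusted p = 0.00257 and 0.00309), with 0.89 in SKN-1t[DNDD] animals (adjusted p = 0.1). *ptr-18* was at 63.2, 80.8, 127 and 154 CPM in SKN-1t[NNNN] samples, 136, 128, 260.2 and 226 in SKN-1t[NDNN] samples, 132, 192, 196 and 161 in SKN-1t[DNDD] samples, against 260.3, 183, 98.4 and 154 CPM in wild type samples. *ptr-18* overlapped the wild type in every strain, with log2 fold changes of -0.59 ± 0.359 (adjusted p = 0.233) in SKN-1t[NNNN] animals, 0.19 ± 0.326 (adjusted p = 0.701) in SKN-1t[NDNN] animals and -0.02 ± 0.27 (adjusted p = 0.96) in SKN-1t[DNDD] animals.

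Besides *ptr-24*, *ptr-23* fell in SKN-1t[NNNN] animals and SKN-1t[NDNN] animals, and *ptr-20* fell in SKN-1t[NNNN] animals. *ptr-23* was at 96.5, 62.7, 65.9 and 41.4 CPM in SKN-1t[NNNN] samples, 50.7, 55.9, 99.7 and 38.1 in SKN-1t[NDNN] samples, 35.4, 84.6, 198 and 162 in SKN-1t[DNDD] samples, against 136, 186, 270.5 and 175 CPM in wild type samples. SKN-1t[NNNN] and SKN-1t[NDNN] samples of *ptr-23* lay below the wild type, and SKN-1t[DNDD] replicates 3 and 4 within it. In the fits, the log2 changes were -1.42 ± 0.273 (adjusted p = 0.00414) in SKN-1t[NNNN] animals, -1.56 ± 0.312 (adjusted p = 0.00528) in SKN-1t[NDNN] animals and -0.67 ± 0.468 (adjusted p = 0.29) in SKN-1t[DNDD] animals. The call of *ptr-23* held in 4 of the 8 fits that leave out a sample in SKN-1t[NNNN] animals and in 2 of 8 in SKN-1t[NDNN] animals. With the block the SKN-1t[NNNN] call of *ptr-23* was not met (adjusted p = 0.0112). *ptr-20* was at 17, 10.7, 14.5 and 12.8 CPM in SKN-1t[NNNN] samples, 13.7, 12.9, 29.9 and 18.3 in SKN-1t[NDNN] samples, 14.4, 25.3, 46 and 38.9 in SKN-1t[DNDD] samples, against 29.5, 35.4, 44.7 and 30.8 CPM in wild type samples. *ptr-20* was called in SKN-1t[NNNN] animals alone of the 3 strains, at -1.24 ± 0.178 (adjusted p = 0.000952), with -0.82 in SKN-1t[NDNN] animals and -0.16 in SKN-1t[DNDD] animals (adjusted p = 0.0442 and 0.72). The other 11 *ptr* genes tested had no call in any strain, with log2 fold changes between -1.50 and 0.40.

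The question of whether the forms of SKN-1t differ from each other was addressed by comparing the strains directly in the fit of all 16 samples. The *skn-1* level differed too, at 206 to 256 CPM in SKN-1t[DNDD] samples, below every sample of SKN-1t[NNNN] (269 to 335) and SKN-1t[NDNN] (257 to 320). In comparisons with SKN-1t[DNDD] animals, the form and the level of *skn-1* thus cannot be told apart. SKN-1t[DNDD] and SKN-1t[NNNN] animals differed by a call in 2 of 66 members, with *wrt-8* higher and *grl-14* lower in SKN-1t[DNDD] animals, against 1.88% higher and 0.734% lower among all 14850 genes. At adjusted p below 0.05 there were 8 such members, against 13.6% of all genes, so members were near the background. The medians of the log2 differences were 0.32 over members and 0.02 over all genes. With the replicate block, 5 members were higher and 2 lower, against 6.23% and 1.37% of all genes, and with the looser cutoff 6 and 1, against 5.98% and 3%. Without overlap between the strains, 6 members were higher and 2 lower, against 8.12% and 7.68% of all genes.

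*grl-14* was at 2.8, 2.71, 2.09 and 2.76 CPM in SKN-1t[DNDD] samples, against 6.84, 10.5, 7.87 and 11 CPM in SKN-1t[NNNN] samples. The groups were well apart, and SKN-1t[NDNN] animals lay between them at 5.7, 4.76, 5.37 and 6.92 CPM without overlapping SKN-1t[DNDD]. The log2 difference of *grl-14* was -1.8 ± 0.236 for SKN-1t[DNDD] minus SKN-1t[NNNN] (adjusted p = 0.000176) and -1.13 ± 0.233 for SKN-1t[DNDD] minus SKN-1t[NDNN] (adjusted p = 0.0247, and 0.006 with the block at a log2 difference of -1.14, which is a call). *wrt-8* was at 10.9, 25.2, 57.3 and 39.7 CPM in SKN-1t[DNDD] samples, against 5.4, 3.05, 6.91 and 8.1 CPM in SKN-1t[NNNN] samples. These groups did not overlap, with SKN-1t[DNDD] replicate 1 nearest to SKN-1t[NNNN], and the log2 difference was 2.5 ± 0.543 (adjusted p = 0.00834), a call that held in 1 of the 8 fits that leave out a sample of these strains and not in the fit of these 8 samples alone.

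The remaining differences at adjusted p below 0.05 between SKN-1t[DNDD] animals and SKN-1t[NNNN] animals were all higher in SKN-1t[DNDD] animals. *grd-11* was at 1.7, 2.54, 4.63 and 5.79 CPM in SKN-1t[DNDD] samples, against 0.216, 0.274, 0.553 and 1.31 CPM in SKN-1t[NNNN] samples, a log2 difference of 2.64 ± 0.636 (adjusted p = 0.0152) between groups that did not overlap. For *grl-16* the log2 difference was 2.18 ± 0.574 (adjusted p = 0.0233), with SKN-1t[DNDD] replicate 1 inside the SKN-1t[NNNN] range. For *grd-5* it was 1.27 ± 0.341 (adjusted p = 0.0258), for *ptr-20* 1.18 ± 0.33 (adjusted p = 0.0296), for *hog-1* 0.92 ± 0.282 (adjusted p = 0.0426) and for *ptr-2* 0.57 ± 0.168 (adjusted p = 0.0369). The groups did not overlap for *grd-5*, *hog-1* and *ptr-2*, and SKN-1t[DNDD] replicate 1 overlapped SKN-1t[NNNN] for *ptr-20*. With the block, *grd-5*, *grd-11*, *grl-16* and *ptr-20* were called higher, and *grd-13* lower at -1.52 (adjusted p = 0.00934).

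SKN-1t[DNDD] and SKN-1t[NDNN] animals differed by a call in 0 of 66 members by edgeR, against 0.128% higher and 0.128% lower of all genes. At an unadjusted p below 0.05 there were 11 members, against 18.4% of all genes, and DESeq2 called *grl-14* lower and no other member. Both the block (2.68% higher and 0.377% lower of all genes) and the looser cutoff (0.512% and 0.586%) also called *grl-14* lower and no other member, at an adjusted p below 0.05 it was again the only member (1.61% of all genes), and 2 members were higher and 3 lower without overlap (3.33% and 4.95%). SKN-1t[NDNN] and SKN-1t[NNNN] animals differed by a call in 0 of 66 members by edgeR, against 0.35% higher and 0.0135% lower of all genes. DESeq2 called 0 of the 77 members to which it gave an adjusted p, against 0.381% higher and 0.0121% lower. At an unadjusted p below 0.05 by edgeR there were 18 members, against 10.1% of all genes. Without overlap, 2 members were higher and 1 lower in SKN-1t[NDNN] animals, against 4.67% and 2.43% of all genes. The typical member differed by less between these strains than from the wild type, with a median absolute log2 difference of 0.43 for SKN-1t[DNDD] minus SKN-1t[NDNN] and 0.46 for SKN-1t[NDNN] minus SKN-1t[NNNN], against 0.25 and 0.17 over all genes.

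**Figure D4:**
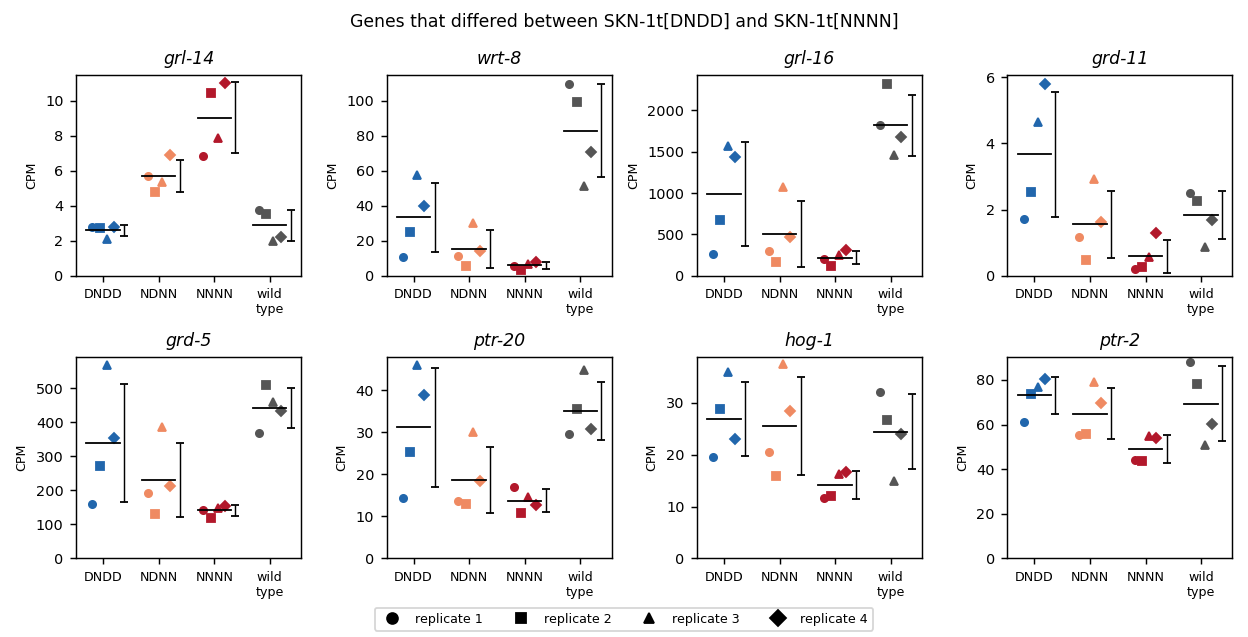
CPM (vertical axes, from 0) of the 8 members that differed between SKN-1t[DNDD] animals and SKN-1t[NNNN] animals at adjusted p below 0.05, in the 4 samples of each genotype, with the marker giving the replicate number, horizontal bars the mean and error bars the SD (n = 4). For *grl-14*, SKN-1t[DNDD] lies with the wild type at 1.96 to 3.78 CPM, below SKN-1t[NNNN] at 6.84 to 11 CPM, and for the others the SKN-1t[DNDD] mean lies above that of SKN-1t[NNNN] animals.

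Members varied strongly within genotypes, and in SKN-1t[DNDD] animals this followed the replicate number. Between replicates 3 and 4 and replicates 1 and 2, the mean log2 CPM of 28 of 66 members differed by more than 1 in SKN-1t[DNDD] animals, 14 in SKN-1t[NNNN] animals and 19 in SKN-1t[NDNN] animals, against 10 in the wild type. As shares of members these were 42.4%, 21.2%, 28.8% and 15.2%, and over all genes 20.3%, 16%, 16.1% and 10.8%. In the wild type, replicate 1 was the highest of the 4 samples for 39 of the 66 members and replicate 3 the lowest for 36. Of the 66, 8 were higher in replicates 3 and 4 in all 4 genotypes and 9 were lower. The labels name no batch, and what the numbers stand for is not given in the sources used here.

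Taking replicates 1 and 2 and replicates 3 and 4 apart, the SKN-1t[DNDD] difference from the wild type had the same direction in both pairs for 43 of 61 members, was larger in size in replicates 1 and 2 for 39, and had a median size of 0.81 in replicates 1 and 2 and 0.52 in replicates 3 and 4, on the log2 CPM scale. In SKN-1t[NNNN] the medians were 1.27 and 1.43 and in SKN-1t[NDNN] animals 1.07 and 1.45. Fits of 2 samples against 2 called 8 members higher and 5 lower in SKN-1t[DNDD] animals from replicates 1 and 2, against 4.37% and 3.85% of all genes. From replicates 3 and 4 they called 0 higher and 1 lower, against 2.24% and 2.04%. The SKN-1t[DNDD] difference of *grd-13* from the wild type came to 2.86 in replicates 1 and 2 and 0.92 in replicates 3 and 4, while *ptr-24* had -1.94 and -1.47 and *ptr-22* 3.77 and 2.46.

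**Figure D5:**
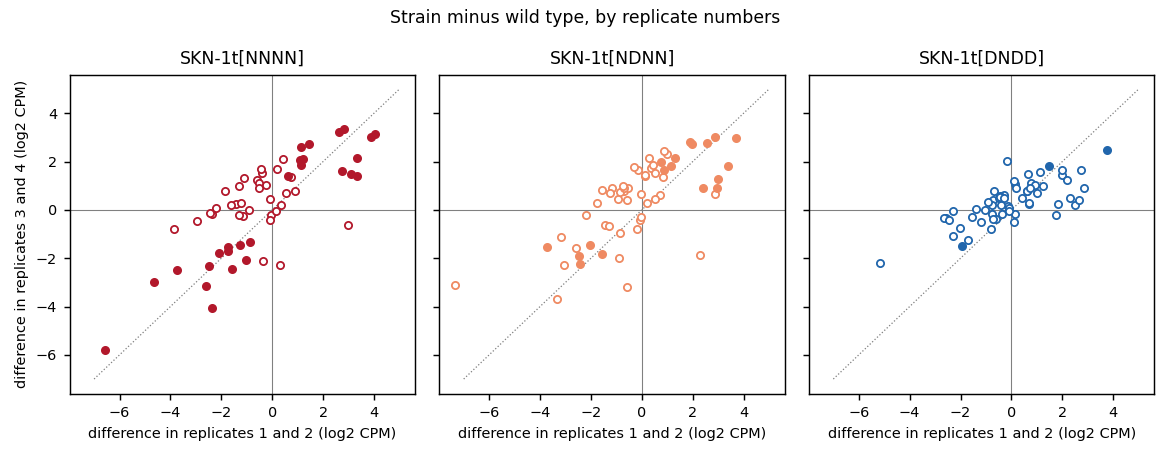
Difference in mean log2 CPM between each strain and the wild type for every member tested, in replicates 3 and 4 (vertical axis) against replicates 1 and 2 (horizontal axis). Filled points are called, and the dotted line marks equal differences. In SKN-1t[DNDD] the median size of the difference is 0.52 in replicates 3 and 4 and 0.81 in replicates 1 and 2.

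Other genes of this system were described beside the members. A list of 10 relatives outside the name rule was described by the same fits: *tra-1* (the GLI homologue, a sex determination factor), *che-14* and *ptd-2* (Dispatched and Patched-domain relatives), *daf-6* (a Patched-related glial protein), *ncr-1* and *ncr-2* (NPC1 homologues), *scp-1* (an SCAP relative), *lrp-1* (the megalin homologue required for molting), *hhat-1* and *hhat-2*. Their median log2 fold changes were -0.04 in SKN-1t[NNNN] animals, -0.14 in SKN-1t[NDNN] animals and 0.13 in SKN-1t[DNDD] animals, against 0.14, 0.08 and 0.04 over all genes, and their median absolute log2 fold changes were 0.19, 0.26 and 0.44, against the 0.42, 0.36 and 0.45 over all genes given above. At adjusted p below 0.05, *lrp-1* was higher in SKN-1t[NNNN] animals (log2 fold change 1.07, adjusted p = 0.0194) and SKN-1t[NDNN] animals (1.24, adjusted p = 0.0138), *hhat-1* was higher in SKN-1t[NDNN] animals (0.91, adjusted p = 0.0343), *ptd-2* was lower in SKN-1t[NNNN] animals (-0.55, adjusted p = 0.0465), and *scp-1* was lower in SKN-1t[NDNN] animals and SKN-1t[DNDD] animals (-0.25 and -0.55, adjusted p = 0.0334 and 0.00269). None of the 10 passed the stricter cutoff without the block, and with it *lrp-1* did in SKN-1t[NDNN] animals, at 1.34 (adjusted p = 0.00835).

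Genes of the molting cycle also differed from the wild type. Of 9 molting regulators, 5 rose in SKN-1t[NNNN] animals, 5 in SKN-1t[NDNN] animals and 1 in SKN-1t[DNDD] animals. Among all genes tested, 7.03%, 6.85% and 3.44% were called higher in these strains. Log2 fold changes lay above 0 for 8 of the 9 regulators in each strain, and the lowest was -1.09, in SKN-1t[NNNN] animals. With the block, 5 regulators were called higher in SKN-1t[NDNN] animals and 3 in SKN-1t[DNDD] animals, where it called 6.51% and 11.8% of all genes higher. *nhr-23*, the nuclear receptor that drives molting, was at 88.9, 93.5, 84.8 and 64.6 CPM in SKN-1t[NNNN] animals, 61.4, 94.7, 40.4 and 47.9 in SKN-1t[NDNN] animals and 63.2, 64.5, 24.4 and 37.8 in SKN-1t[DNDD] samples, against 17.2, 7.22, 9.31 and 9.13 CPM in wild type samples. It was higher in every transgenic sample, with log2 fold changes of 3.07, 2.61 and 2.16 (adjusted p = 8.35e-05, 0.000833 and 0.00373). *peb-1*, *grh-1*, *myrf-1* and *lin-29* were the other regulators called in SKN-1t[NNNN] animals and SKN-1t[NDNN] animals, at log2 fold changes of 1.27 to 3.01. The summed level of the regulators was 955 to 1135 CPM in SKN-1t[NNNN] animals, 1044 to 1264 in SKN-1t[NDNN] animals and 635 to 1027 in SKN-1t[DNDD] samples, against 328 to 829 CPM in wild type samples. Of 12 molting and apical matrix effectors, 5 rose and 3 fell in SKN-1t[NNNN] animals (7.03% and 6.12% of all genes), and 6 rose in SKN-1t[NDNN] animals (6.85%). Those that rose in both strains were *fbn-1* (a fibrillin-related matrix protein), *noah-1* and *noah-2* (apical matrix proteins), *mlt-11* (a protease inhibitor) and *nas-37* (a metalloprotease), *mlt-9* also rose in SKN-1t[NDNN] animals, and *nas-7*, *nas-36* and *bli-5* fell in SKN-1t[NNNN] animals. The block gave 6 effectors higher and 1 lower in SKN-1t[NDNN] animals and 5 higher in SKN-1t[DNDD] animals. The summed level of the effectors was 3984 to 5022 CPM in SKN-1t[NNNN] animals, 3406 to 5626 in SKN-1t[NDNN] animals and 1843 to 4841 in SKN-1t[DNDD] samples, against 727 to 2031 CPM in wild type samples. Their part in the changes of the members was not tested.

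Markers of later stage and of tissues also moved with the strains. All 7 adult-onset somatic genes (*col-19* and the yolk genes *vit-1* to *vit-6*) fell in SKN-1t[NNNN] animals, 5 in SKN-1t[NDNN] animals and 3 in SKN-1t[DNDD] animals, and with the block 7 were called lower in SKN-1t[NDNN] animals and 6 in SKN-1t[DNDD] animals. Their sum was 95.3 to 223 CPM in SKN-1t[NNNN] animals, 109 to 923 in SKN-1t[NDNN] animals and 144 to 3921 in SKN-1t[DNDD] samples, against 4358 to 24463 CPM in wild type samples, which do not overlap. Of 6 epidermal markers, 3, 3 and 1 rose in these strains, with sums of 646 to 800.4, 635 to 868 and 462 to 785 CPM, against 379 to 521 CPM in wild type samples, and with the block 3 were called higher in SKN-1t[DNDD] animals. All 5 intestinal markers were lower without overlap at adjusted p below 0.05 in each strain, with 2, 2 and 1 called and median log2 fold changes of -0.60, -0.78 and -0.80. Their sums were 6866 to 8495, 6675 to 7425 and 6089 to 7485 CPM, against 9787 to 13512 CPM in wild type samples. Of 4 muscle markers, 3, 3 and 2 were higher at adjusted p below 0.05, with 1, 1 and 0 called and sums of 2833 to 4204, 2212 to 3853 and 2427 to 3904 CPM, against 1905 to 2416 CPM in wild type samples. Of 4 neuronal markers, 2 in each strain were higher at adjusted p below 0.05 and 0 were called, with sums of 147 to 197, 178 to 206 and 182 to 245 CPM, against 169 to 197 CPM in wild type samples. These markers include *unc-119*, the gene mutated in the transgenic strains, whose counted reads were higher there, at 11.9 to 16.9 CPM against 9.05 to 9.89 CPM in wild type samples. Of 6 glial markers, 4 were tested, and 2, 1 and 1 of them were lower at adjusted p below 0.05, with 0, 0 and 1 called. Their sums were 71.3 to 91.9, 100.3 to 127 and 91.0 to 137 CPM, against 114 to 137 CPM in wild type samples. Sperm and oocyte lists had median log2 fold changes of 0.84 and 0.82 in SKN-1t[NNNN] animals and 0.49 and 0.17 in SKN-1t[NDNN] animals. In SKN-1t[DNDD] animals the medians were 1.64 and 2.13. Without the block, 0 of 8 sperm and 0 of 6 oocyte genes were called there, and 2 and 0 had an adjusted p below 0.05. The SKN-1t[DNDD] sums, 27.4 to 165 CPM for sperm and 18.4 to 275 CPM for oocyte genes, overlapped those of the wild type (13.9 to 48.8 and 8.81 to 40.5 CPM). With the block, 7 sperm and 5 oocyte genes were called higher in SKN-1t[DNDD] animals, against 11.8% of all genes. Whether stage or tissue makeup takes part in the changes of the hedgehog-related and patched-related genes was not tested.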

How the data were processed

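Poly(A) RNA of whole L4 animals was sequenced in 16 samples (4 per genotype, grouped by the submitters' titles) from TruSeq stranded libraries with paired 50-base reads. The authors aligned reads to WBcel235 and deposited raw read counts per gene, with a gene length that was used here for RPKM alone. The submitters' processing notes name STAR 2.7.7a and FastQC 0.11.9. What the gene length covers, and whether strand was used in counting, are not given in the sources used here.

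Models were fitted in edgeR 4.0.16 under R 4.3.3, with DESeq2 1.42.0 as an alternative, and plots were drawn by matplotlib 3.10.9 under Python 3.11.15. A strain and the wild type were fitted together on their 8 samples, and differences among strains came from 1 fit of all 16. Genes passed filterByExpr (min.count 10, min.total.count 15) before TMM scaling, the quasi-likelihood F test and Benjamini-Hochberg adjustment across every gene tested. A call required a log2 fold change beyond 1 in size with adjusted p under 0.01, and the looser, secondary cutoff a change of over 1.5 times with adjusted p under 0.05. CPM values use TMM factors over all 16 samples, and log2 CPM a prior count of 2. Fits were tested on simulated counts.

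The members and gene lists were chosen with earlier results of these data known. Members described with values are *hog-1*, *qua-1* and the *ptc* genes, up to the 8 largest calls per direction and comparison, and the 3 highest mean RPKM per larger family; those below 15 reads are only named. Other genes given with values were chosen after these were seen.

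Deviations from genotype means correlated between samples of the same number, across genes, at 0.462 to 0.531 for SKN-1t[DNDD] against the wild type, 0.288 to 0.410 for SKN-1t[NDNN] against it and at least 0.184 between strains, so these were taken as paired and refitted with the number as a block; SKN-1t[NNNN] against the wild type (lowest 0.0626) was not. Alternatives were RLE scaling, DESeq2, no count filter, other sample sets, the block, a covariate for replicates 1 and 2 against 3 and 4, other quasi-dispersions, the secondary cutoff and leaving out each sample. Fits of replicates 1 and 2 alone and 3 and 4 alone were chosen after seeing the data.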

Additional observations from a re-analysis of the deposited data

Results flagged for a closer look

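In 7 of the 164 groups of 4 samples looked at (41 members in 4 genotypes), 1 sample stood apart from the other 3 by Dixon's test, and chance gives about 1 in 20 such groups. In SKN-1t[NDNN], replicate 3 was the high sample for *grl-27* (4.85 CPM, against at most 0.632 in the others), *grd-6* (57.1 CPM, at most 14.8) and *grd-14* (211 CPM, at most 58.6), and replicate 1 the low sample for *ptr-22* (4.18 CPM, at least 5.75 in the others) and *ptr-11* (202 CPM, at least 223). In SKN-1t[DNDD], replicate 2 was high for *ptc-3* (424 CPM, at most 379) and replicate 3 low for *grl-14* (2.09 CPM, at least 2.71).

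The strains differed from each other at an adjusted p below 0.05 (edgeR's quasi-likelihood test) in 9 cases. For SKN-1t[DNDD] minus SKN-1t[NNNN] the log2 differences were 2.64 for *grd-11*, 2.50 for *wrt-8*, 2.18 for *grl-16*, 1.27 for *grd-5*, 1.18 for *ptr-20*, 0.92 for *hog-1*, 0.57 for *ptr-2* and -1.80 for *grl-14*. For SKN-1t[DNDD] minus SKN-1t[NDNN] it was -1.13 for *grl-14*.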

How the results depend on the processing

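Counts of called members (higher and lower) moved with the test, the cutoff, the pairing and the samples; the causes were not tested. DESeq2 gave 21 and 10 in SKN-1t[NDNN] animals, 11 and 3 in SKN-1t[DNDD] animals, 5 higher for SKN-1t[DNDD] minus SKN-1t[NNNN] and 1 lower for SKN-1t[DNDD] minus SKN-1t[NDNN], against 6.9% and 4.98%, 7.83% and 3.94%, 3.71%, and 0.339% of all genes with an adjusted p from DESeq2. No count filter gave 8 lower in SKN-1t[NDNN] animals, against 2.96% of all genes. The secondary cutoff gave 23 and 12 in SKN-1t[NDNN] animals, 10 and 5 in SKN-1t[DNDD] animals, 6 higher against SKN-1t[NNNN] and 1 lower against SKN-1t[NDNN]. A fit of all 16 samples gave 7 higher in SKN-1t[DNDD] animals (5.13% of all genes). The 8 samples from SKN-1t[DNDD] animals and SKN-1t[NNNN] animals alone gave 0 higher (1.01%). Replicates 1 and 2 alone gave 15 lower in SKN-1t[NDNN] animals, against 6.6% of all genes. They gave 8 and 5 in SKN-1t[DNDD] animals (4.37% and 3.85%), and 6 and 2 against SKN-1t[NNNN] (3.94% and 1.26%). Replicates 3 and 4 alone gave 8 and 1 in SKN-1t[NDNN] animals, against 2.31% and 1.11% of all genes. They gave 0 higher in SKN-1t[DNDD] animals (2.24%) and 0 higher against SKN-1t[NNNN] (0.696%).

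The replicate block gave 9 and 4 in SKN-1t[DNDD] animals, 5 and 2 against SKN-1t[NNNN] and 1 lower against SKN-1t[NDNN]. In the same order, the covariate for replicates 1 and 2 against 3 and 4 gave 9 and 4, 5 and 4, and 1 lower. Its shares of all genes were 12.8% and 4.47%, 6.51% and 1.47%, and 0.364%. In SKN-1t[NNNN] the numbers were not taken to pair the samples, because the lowest correlation at the same number was 0.0626. The samples that correlated best with their own number did not set this strain apart. They were 4 of 8 here, 3 of 8 for SKN-1t[NDNN] and 4 of 8 for SKN-1t[DNDD], each with the wild type. The mean correlations at the same number were 0.308, 0.351 and 0.509 in the same order, so that of SKN-1t[NNNN] was close to that of SKN-1t[NDNN]. In SKN-1t[NNNN] animals the block gave 10 and 11 in place of 14 and 13, against 6.32% and 5.28% of all genes. The edgeR calls of *ptr-4*, *wrt-2*, *wrt-1*, *ptr-11*, *ptr-23* and *grl-22* were lost with it (adjusted p of 0.0109 to 0.0234). Changes near 0 turned sign with the block or the covariate, for *wrt-6* (0.020 with the block) and *ptr-2* (0.012 and 0.011) in SKN-1t[NDNN] animals, and for *ptr-18* in SKN-1t[DNDD] animals (0.048 and 0.033, and 0.0029 with RLE scaling). Apart from the calls given here and beside the results, the block changed no other call of a member. Among the gene lists in SKN-1t[NNNN] animals it gave 4 molting regulators higher in place of 5 and 2 effectors lower in place of 3.

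Leaving out 1 sample gave 7 to 16 higher in SKN-1t[NNNN] animals, where the same fits called 4.7% to 7.6% of all genes. In SKN-1t[NDNN] animals it gave 5 to 16 higher (4.46% to 7.08%) and 2 to 11 lower (2.56% to 4.81%). It gave 1 to 3 higher in SKN-1t[DNDD] animals (1.96% to 3.65%) and 0 to 4 higher against SKN-1t[NNNN] (1.3% to 2.77%). Log2 fold changes near 0 turned sign, with ranges of -0.0087 to 0.51 (*ptc-3*) and -0.11 to 0.60 (*grl-7*) in SKN-1t[NNNN] animals, of -0.090 to 0.32 (*hog-1*), -0.30 to 0.27 (*wrt-6*), -0.0055 to 0.46 (*ptr-18*), -0.64 to 0.14 (*grd-11*) and -0.13 to 0.13 (*ptr-2*) in SKN-1t[NDNN] animals, and of -0.035 to 0.30 (*hog-1*), -0.29 to 0.014 (*grl-14*), -0.22 to 0.24 (*ptr-18*), -0.38 to 0.11 (*ptr-20*) and -0.042 to 0.22 (*ptr-2*) in SKN-1t[DNDD] animals. No called member changed sign under any alternative run. Depth limits the 18 members that were too low to test.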
